A study of Mus musculus with 6 samples.

Results

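The genes described here code for the recognition, unwinding and incision factors of nucleotide excision repair, and their mRNA was compared between the kidneys of WT and Trpm2-/- mice after cisplatin. The members are Xpc, Ddb1, Ddb2, Ercc6, Ercc2, Ercc3, Xpa, Ercc1, Ercc4 and Ercc5. They were taken by gene name from tables of read counts and of FPKM (fragments scaled by gene length and by library size), and these 10 genes of the 54532 listed all had enough counts to be tested among 15816 genes. RNA from kidney tissue was sequenced in 3 WT mice and 3 Trpm2-/- mice (numbered 1, 2 and 4). The mice are labelled as C57BL/6J and 6 to 8 weeks old, while the study's methods give an older range. Both groups received cisplatin at 18 mg/kg and were examined at 72 h, so every comparison here is between genotypes after cisplatin. The Trpm2-/- allele lacks exons 17 and 18 and is described in the methods as giving a protein without channel function. The labels and methods name no restriction to a cell type. The labels tie each library to 1 numbered kidney sample and say nothing more on how the samples were taken, so p-values measure the spread between these samples.

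Nucleotide excision repair removes bulky lesions that distort the DNA helix, and the adducts that cisplatin forms between neighbouring purines within a strand are among its substrates. In global genome repair, XPC and the DDB1-DDB2 complex find the lesion, whereas in transcription-coupled repair a stalled RNA polymerase is recognised with the help of CSB, the product of Ercc6. The TFIIH helicases XPB (Ercc3) and XPD (Ercc2) then open the helix with XPA, and the nucleases XPF-ERCC1 (Ercc4 with Ercc1) and XPG (Ercc5) cut the strand on either side of the lesion. The gap is filled by DNA polymerases and sealed by a ligase. Proximal tubule cells take up cisplatin and are the main site of its injury in the kidney.

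Total counts ranged from 14053307 to 17150089 per sample, and 3 counts, taken as the limit that a count of 0 allows, corresponded to 0.184 to 0.205 CPM (counts scaled to 1e+06 per library). The least abundant member, Ddb2, had at least 71 counts in every sample. Mitochondrially encoded genes took 4.57% ± 0.147 (SD, n = 3) of the counts in WT kidneys and 8.96% ± 1.79 (n = 3) in Trpm2-/- kidneys, with 11.04% in Trpm2-/- mouse 4. Trpm2 itself had 5, 5 and 27 counts in WT mice and 10, 16 and 20 in Trpm2-/- mice. A count over the whole gene includes the exons that the allele retains, so it does not check the genotype. Of 12 markers of proximal tubule cells, 11 fell in Trpm2-/- kidneys and their summed level was 3834 to 4822 CPM in WT and 1224 to 1744 CPM in Trpm2-/- mice. The tissue label was matched by these markers in every sample. In RNA from a tissue, fewer cells of a type and less RNA per cell cannot be told apart.

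Ercc1 was the 1 member of 10 that passed the test, and it rose in Trpm2-/- kidneys. Its level was 63.3, 72.2 and 63.3 CPM in WT mice 1, 2 and 3, and 133, 223 and 114 CPM in Trpm2-/- mice 1, 2 and 4. Every Trpm2-/- kidney had more Ercc1 mRNA than every WT kidney, and Trpm2-/- mouse 2 was the highest. The log2 fold change was 1.24 with a standard error of 0.231 (95% interval 0.72 to 1.76, adjusted p = 0.00951, edgeR quasi-likelihood test with Benjamini-Hochberg adjustment over the 15816 genes), which is a mean level 2.36 times that of WT. At this adjusted threshold 4.74% of all genes tested were higher in Trpm2-/- kidneys and 7.28% were lower, so 1 member higher and 0 lower among 10 is near the share found across all genes. Ercc1 ranked 597 by p and 367 by log2 fold change among the genes tested. It was also the only member past the threshold given in the study's methods, an absolute log2 fold change above 1 with p under 0.05, here taken as unadjusted. That threshold was passed by 3.50% of genes in the higher and 4.10% in the lower direction. Without Trpm2-/- mouse 2 the log2 fold change was 0.90 (adjusted p = 0.00922, same test), under the methods' limit of 1. The call was lost in 1 of 18 alternative analyses, limma on log2(FPKM + 1) with no filter on low values (log2 fold change 1.15, adjusted p = 0.0778).

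**Figure D1:**
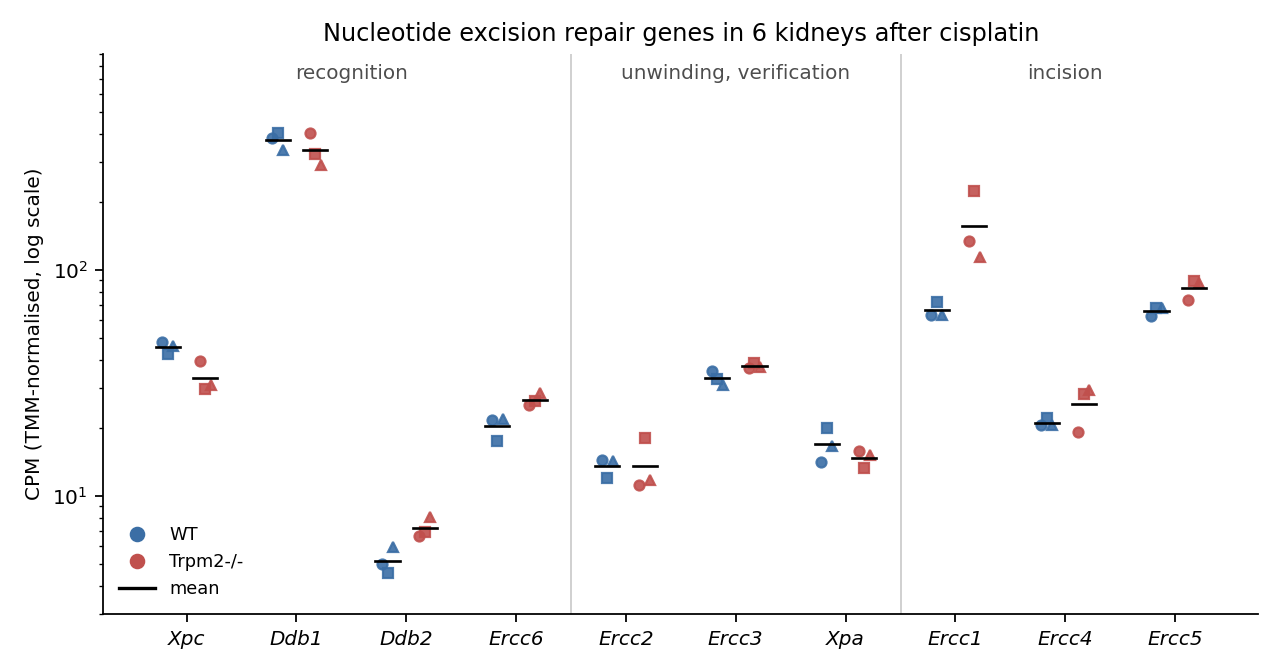
Level of each member in each kidney, in CPM on a log scale, grouped by step of the pathway. Blue points are WT and red points Trpm2-/- kidneys (circle, number 1; square, number 2; triangle, WT 3 or Trpm2-/- 4), and bars are means of 3 kidneys. The Ercc1 points of Trpm2-/- kidneys, at 114 to 223 CPM, sit above those of WT, at 63.3 to 72.2 CPM, while the points of most other members lie close together.

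At the recognition step none of the 4 members passed the edgeR test (2 had an unadjusted p under 0.05, as did 28.3% of all genes tested), and their differences pointed in both directions. Xpc, which codes for the lesion sensor of global genome repair (ENSMUSG00000030094, chromosome 6, 91489305 to 91515888, minus strand; positions here and below are those of the deposited table, in GRCm38 coordinates), measured 47.8, 42.5 and 46.3 CPM in WT and 39.4, 29.8 and 30.9 CPM in Trpm2-/- mice. All 3 Trpm2-/- values were below all 3 WT values, with Trpm2-/- mouse 1 nearest to WT. The log2 fold change of -0.45 (SE 0.145, 95% interval -0.77 to -0.12) had an adjusted p of 0.0751 in the edgeR quasi-likelihood test. Without Trpm2-/- mouse 1, Xpc passed at a log2 fold change of -0.58 (adjusted p = 0.0293, same test). The number of members called was then 2. With any other mouse left out, the adjusted p of Xpc was 0.138 to 0.235 (same test).

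Ddb2, which codes for the damage-binding subunit (chromosome 2, 91211572 to 91236982, minus strand), measured 5.0, 4.56 and 5.95 CPM in WT and 6.67, 6.90 and 8.09 CPM in Trpm2-/- mice, or 71 to 97 counts against 101 to 130. The groups did not overlap, but the log2 fold change of 0.48 (SE 0.233) had an interval from -0.04 to 1.00 and an adjusted p of 0.211 in the edgeR test. Of the exonic bases of Ddb2, 23.8% lie in Acp2 on the opposite strand. The sources used here do not say whether counting used strand, so reads of the shared stretch cannot be assigned and the level of Ddb2 is uncertain.

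Ddb1, the subunit that joins DDB2 to the CUL4 ubiquitin ligase (chromosome 19, 10605625 to 10629813, plus strand; the annotation used here places it at 10605327 to 10629819), was the most abundant member. It measured 385, 404 and 339 CPM in WT and 405, 324 and 291 CPM in Trpm2-/- mice. The highest value of all 6 belonged to a Trpm2-/- kidney and the groups overlapped, with a log2 fold change of -0.15 (SE 0.161, 95% interval -0.51 to 0.21, adjusted p = 0.601, edgeR).

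Ercc6, which codes for CSB of transcription-coupled repair (chromosome 14, 32513521 to 32580990, plus strand), measured 21.6, 17.5 and 21.8 CPM in WT and 25.2, 26.1 and 28.6 CPM in Trpm2-/- mice. The 3 Trpm2-/- kidneys were above the 3 WT kidneys, and the log2 fold change of 0.39 (SE 0.149, 95% interval 0.06 to 0.73) had an adjusted p of 0.118 in the edgeR test.

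None of the 3 members that open the helix and verify the lesion passed the edgeR test, and 0 of them had an unadjusted p under 0.05. Ercc2, which codes for the XPD helicase (chromosome 7, 19382010 to 19395694, plus strand), measured 14.4, 12.02 and 14.3 CPM in WT and 11.2, 18.0 and 11.7 CPM in Trpm2-/- mice. The lowest and the highest of these values were both from Trpm2-/- kidneys, and the log2 fold change was 0.00 (SE 0.221, 95% interval -0.49 to 0.50, adjusted p = 0.992, edgeR). Its sign depended on the analysis. Of the exonic bases of Ercc2, 42.7% also belong to other genes, mainly Gm26852 and Klc3 on the opposite strand, so its count is uncertain in the same way as that of Ddb2.

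Ercc3, on the plus strand of chromosome 18, codes for the XPB translocase. It measured 35.7, 32.8 and 30.8 CPM in WT and 36.8, 38.6 and 37.0 CPM in Trpm2-/- mice, so the groups did not overlap although they were separated by only a narrow gap. The log2 fold change was 0.18 (SE 0.124, 95% interval -0.10 to 0.46, adjusted p = 0.384, edgeR). Xpa, whose product checks for damage and holds the complex in place (chromosome 4, 46155347 to 46196311, minus strand), measured 14.2, 20.05 and 16.6 CPM in WT and 15.9, 13.2 and 15.1 CPM in Trpm2-/- mice. WT mouse 1 lay among the Trpm2-/- mice, and the log2 fold change of -0.20 (SE 0.184, 95% interval -0.61 to 0.21) had an adjusted p of 0.519 in the edgeR test.

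Among the 3 incision genes all differences were above 0. Ercc4, which codes for the XPF nuclease that works as a dimer with ERCC1 (chromosome 16, 13109684 to 13150617, plus strand), measured 20.5, 22.0 and 20.5 CPM in WT and 19.1, 28.2 and 29.5 CPM in Trpm2-/- mice. Trpm2-/- mouse 1 had the lowest value of the 6, so the groups overlapped, and the log2 fold change of 0.28 (SE 0.182, 95% interval -0.12 to 0.69) had an adjusted p of 0.346 in the edgeR test. Ercc5, which codes for XPG, the nuclease that cuts 3' of the lesion (chromosome 1, 44147744 to 44181260, plus strand), measured 62.2, 67.5 and 67.5 CPM in WT and 73.3, 89.4 and 87.7 CPM in Trpm2-/- mice. These groups did not overlap, and the log2 fold change was 0.34 (SE 0.129, 95% interval 0.06 to 0.63, adjusted p = 0.113, edgeR).

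Of the 10 members, 7 had a log2 fold change above 0 and 3 below, with a median of 0.23, beside a median of 0.02 over all genes tested. Groups did not overlap for 6 members, of which Ercc1, Ddb2, Ercc6, Ercc3 and Ercc5 were higher and Xpc lower in all 3 Trpm2-/- kidneys. Over all genes tested, 33.5% showed no overlap in one direction or the other. At an unadjusted p under 0.05 there were 4 of 10 members, Ercc1, Xpc, Ercc5 and Ercc6, beside 28.3% of all genes tested. The summed level of the 10 members was 663 ± 35.1 CPM in WT and 739 ± 75.6 CPM in Trpm2-/- kidneys (mean ± SD, n = 3 each).

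The spread between mice differed from gene to gene. The coefficient of variation of Ercc1 was 7.75% in WT and 37.0% in Trpm2-/- kidneys, the largest of the 20 values over members and groups. Ercc2 and Ercc4 also varied more among Trpm2-/- mice (27.6% and 22.2%) than among WT mice (9.87% and 4.19%). So did Xpc (15.6% in Trpm2-/- and 6.02% in WT mice), Ddb1 (17.25% and 8.92%) and Ercc5 (10.6% and 4.63%). The opposite held for Ercc3, with 7.47% in WT and 2.72% in Trpm2-/- mice. It also held for Xpa (17.4% in WT and 9.13% in Trpm2-/- mice), Ercc6 (11.8% and 6.64%) and Ddb2 (13.7% and 10.6%). With 3 mice per group these differences in spread were not tested. High values were not shared by a single mouse, since Trpm2-/- mouse 2 was the highest of its group for Ercc1, Ercc2, Ercc3 and Ercc5, mouse 4 for Ddb2, Ercc6 and Ercc4, and mouse 1 for Xpc, Ddb1 and Xpa.

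**Figure D2:**
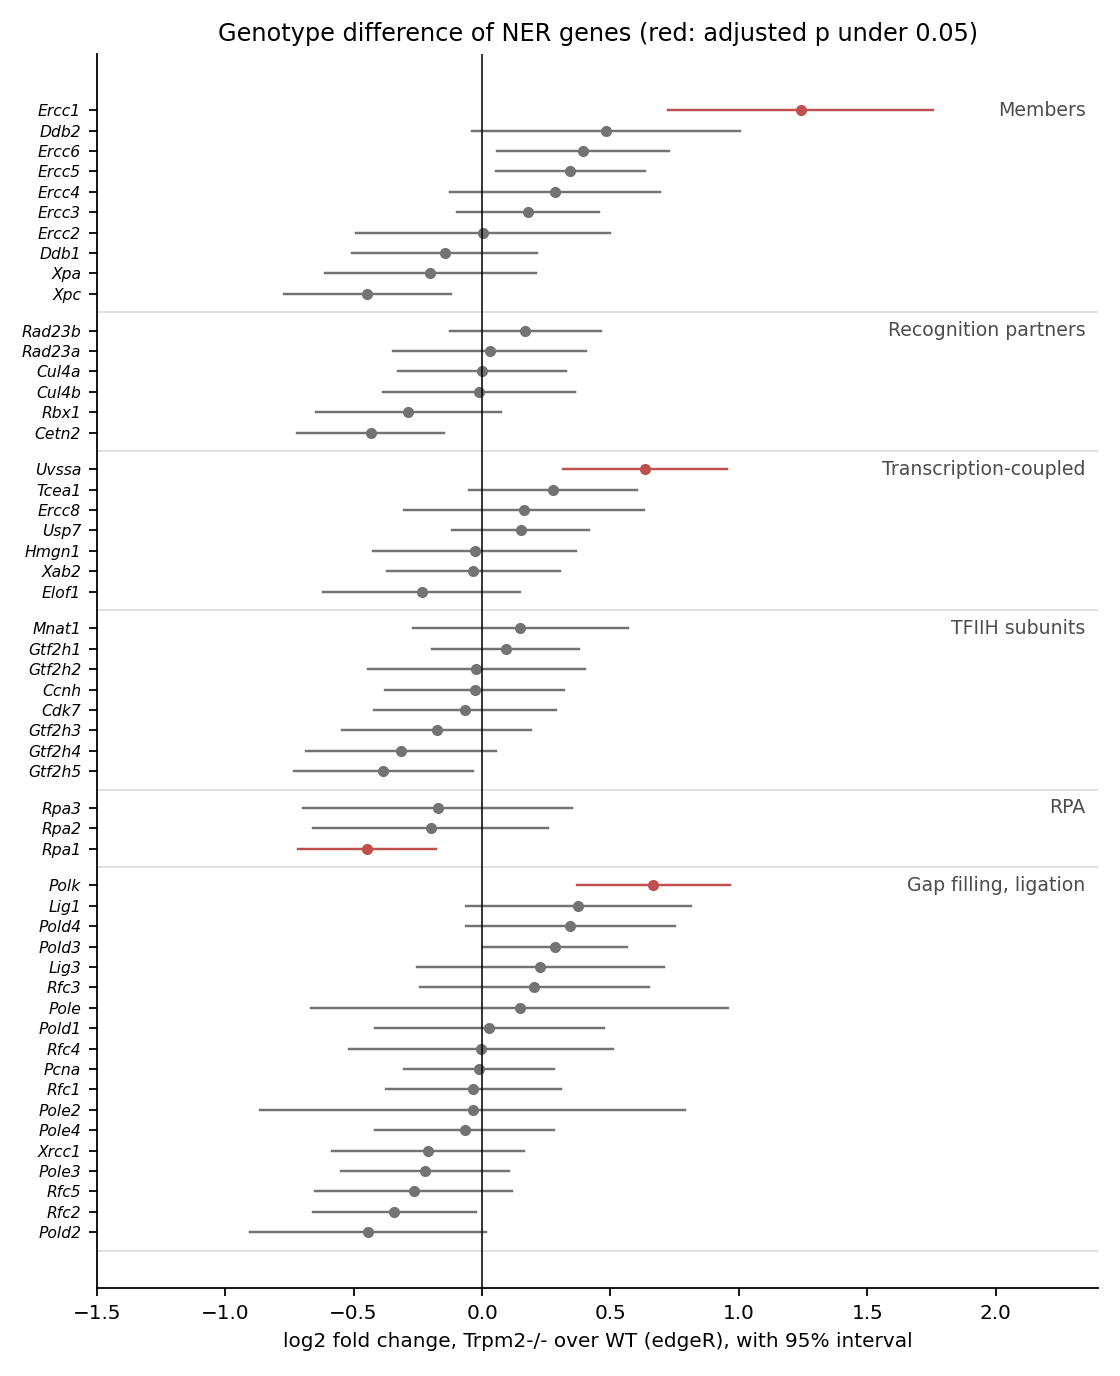
Log2 fold change of Trpm2-/- over WT kidneys with its 95% interval (horizontal axis) for the 10 members and 42 other nucleotide excision repair genes (vertical axis), grouped by role. Red marks an adjusted p under 0.05 in the edgeR test, which held for Ercc1, Uvssa and Polk above 0 and for Rpa1 below 0.

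Compared per length of gene, as FPKM, the members spanned a wide range of levels. The FPKM of Ddb1 use a deposited length of 4155 bases, while the annotation used here gives 6409 exonic bases, so its level per length depends on the annotation. The places of Ddb2 and Ercc2 are uncertain for the shared exonic bases given above. In WT kidneys the order of mean FPKM was Ddb1 (79.1), Ercc1 (18.6), Ercc3 (10.2), Ercc5 (9.81), Xpa (7.83), Xpc (7.25), Ercc2 (2.84), Ercc4 (2.73), Ddb2 (1.65) and Ercc6 (1.38). The ranges over the 3 mice overlapped between the neighbours Ercc3 and Ercc5, Xpa and Xpc, Ercc2 and Ercc4, and Ddb2 and Ercc6, so their order is not resolved, while the other neighbours in the order did not overlap. In Trpm2-/- kidneys Ddb1 (72.1 FPKM) and Ercc1 (44.3 FPKM) came first again, but the ranges now touched, at 62.1 to 85.7 FPKM for Ddb1 and 32.5 to 62.7 FPKM for Ercc1. Ercc5 (12.6), Ercc3 (11.7), Xpa (6.87), Xpc (5.36), Ercc4 (3.36), Ercc2 (2.88), Ddb2 (2.33) and Ercc6 (1.83) followed. Ranges overlapped between Ercc5 and Ercc3, between Xpa and Xpc, between Ercc4 and Ercc2, and between Ercc2 and Ddb2. Ercc1 mRNA was more abundant per length than that of its obligate partner Ercc4 in both genotypes.

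Several members act as fixed pairs, and the ratio of the FPKM of both genes within a sample does not depend on the scaling of the library. For Ercc1 to Ercc4, the subunits of the 5' nuclease, the log2 ratio was 2.74, 2.83 and 2.74 in WT and 3.92, 4.09 and 3.06 in Trpm2-/- mice. The groups did not overlap, and the ratio was 1.90 times as high in Trpm2-/- kidneys, a difference in log2 ratio of 0.92 (two-sided exact permutation p = 0.1, 0.25 after Benjamini-Hochberg adjustment over 5 ratios). With 3 against 3 mice, 0.1 is the smallest p this test can give. For Xpc to Rad23b, whose product stabilises XPC, the log2 ratio was -1.30, -1.32 and -1.25 in WT and -1.84, -1.94 and -1.95 in Trpm2-/- mice.

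This second ratio was the tightest within groups, and the groups did not overlap. The difference was -0.62, a ratio 0.650 times that of WT (exact permutation p = 0.1, adjusted 0.25). Xpc lay at -0.45 and Rad23b at 0.17 (SE 0.131, adjusted p = 0.441, edgeR), neither past the test by itself. The other 3 ratios overlapped between genotypes. The difference in log2 ratio was -0.64 for Ddb1 to Ddb2 (exact permutation p = 0.2), -0.20 for the helicases Ercc2 to Ercc3 (exact permutation p = 0.4) and 0.24 for Ercc6 to Ercc8, which code for CSB and CSA (exact permutation p = 0.4).

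**Figure D3:**
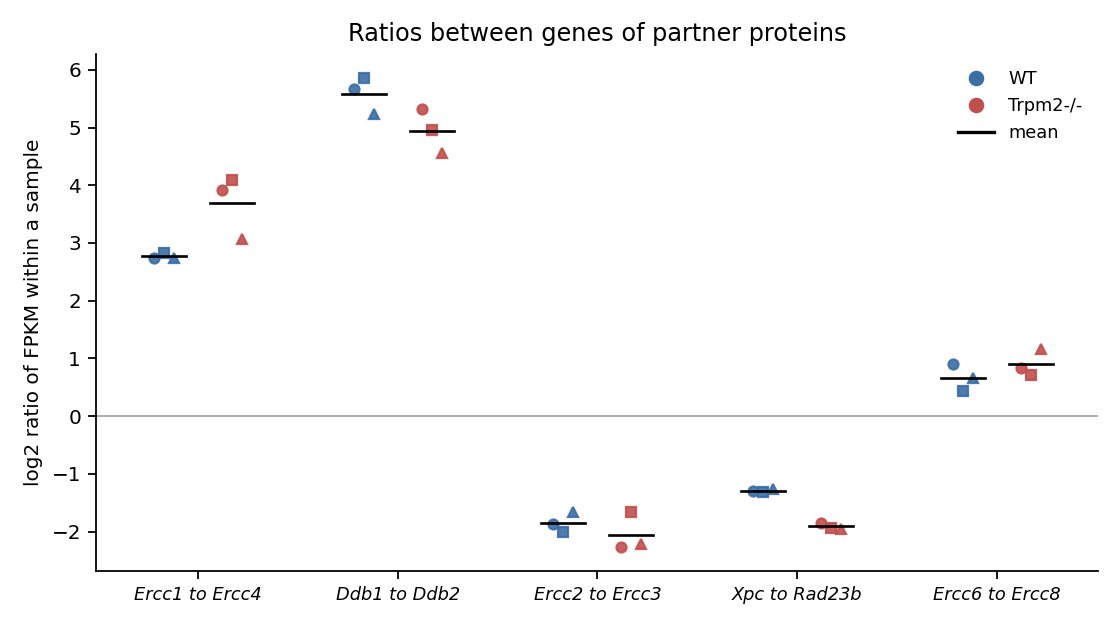
Log2 ratio of the FPKM of genes whose products work together, in each kidney (blue, WT; red, Trpm2-/-; circle, number 1; square, number 2; triangle, WT 3 or Trpm2-/- 4; bars, means of 3). Genotypes are apart for Ercc1 to Ercc4 (up to 2.83 in WT and from 3.06 in Trpm2-/- mice) and for Xpc to Rad23b, and overlap for the other 3 ratios.

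Ercc1 (ENSMUSG00000003549) spans 19344778 to 19356524 on the plus strand of chromosome 7, and the annotation gives it 10 transcripts, of which 3 are coding and 4 retain an intron. The gene counts do not separate these transcripts. Its last 106 exonic bases, 3.41% of the exonic length, also lie in Cd3eap, which is transcribed from the opposite strand. Cd3eap itself measured 16.6 CPM in WT and 17.3 CPM in Trpm2-/- kidneys (log2 fold change 0.06, adjusted p = 0.861, edgeR). Ercc2, the neighbouring member 37.2 kb away, had a log2 fold change of 0.00.

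Within 100 kb of Ercc1, 11 other genes were tested and their log2 fold changes ranged from -0.01 for Opa3 to 0.81 for Fosb. Ppp1r13l, which codes for the p53-binding inhibitor iASPP, was the 1 gene of the 11 that passed, rising from 26.1 to 39.1 CPM (log2 fold change 0.59, SE 0.137, adjusted p = 0.0251, edgeR). At that threshold 4.74% of all genes tested were higher. Fosb, an AP-1 transcription factor gene, went from a mean of 6.70 to one of 11.8 CPM with overlapping groups (adjusted p = 0.0829, edgeR). Fosb, Vasp (log2 fold change 0.40) and Mark4 (0.29) had an unadjusted p under 0.05 in the edgeR test without passing it, beside 28.3% of all genes tested at such a p. Opa3 was the only gene of the 11 below 0.

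**Figure D4:**
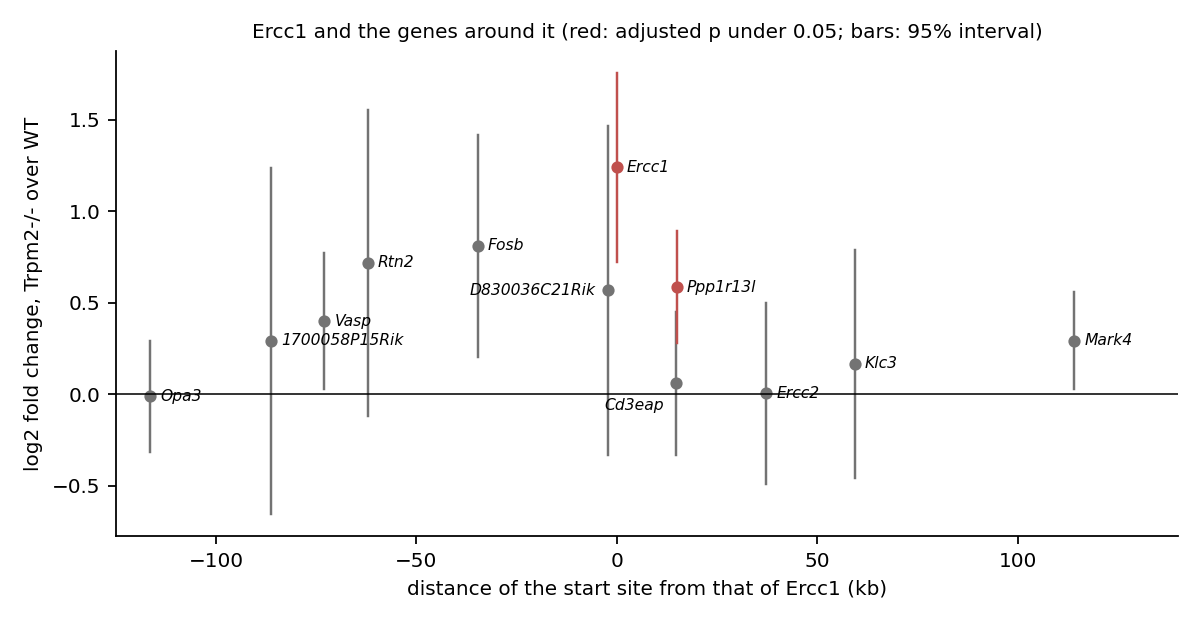
Log2 fold change of Trpm2-/- over WT kidneys, with 95% intervals, for Ercc1 and 11 tested genes that reach within 100 kb of it, plotted by the distance of each start site from that of Ercc1 in kb. Red marks an adjusted p under 0.05. Ercc1, at 1.24, has the highest value, and Ppp1r13l, at 0.59, is the other gene marked.

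The remaining genes of the pathway were read from lists by role. Of 42 other nucleotide excision repair genes, all of them tested, 2 rose, 1 fell and 39 did not pass the test, with a median log2 fold change of -0.02. At the same threshold 4.74% of all genes tested were higher and 7.28% were lower. Uvssa, which stabilises CSB at stalled polymerases, was the 1 of 7 transcription-coupled repair genes that rose. It measured 21.3, 21.3 and 20.5 CPM in WT and 31.2, 29.6 and 37.2 CPM in Trpm2-/- mice (log2 fold change 0.63, SE 0.142, adjusted p = 0.0209, edgeR). Its level was even among WT mice and higher in all 3 Trpm2-/- mice.

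Polk, a polymerase that can fill the gap and can also pass lesions during replication, rose as the 1 of 18 gap filling and ligation genes that passed. It measured 43.7, 36.1 and 36.9 CPM in WT and 67.6, 58.8 and 59.1 CPM in Trpm2-/- mice (log2 fold change 0.67, SE 0.133, adjusted p = 0.0133, edgeR). Rpa1, the large subunit of the protein that coats single-stranded DNA, fell as 1 of 3 RPA genes, from 40.4, 41.3 and 43.4 CPM in WT to 30.7, 31.6 and 29.4 CPM in Trpm2-/- mice (log2 fold change -0.45, SE 0.119, adjusted p = 0.0397, edgeR). For each of these genes the groups did not overlap. The number of other pathway genes called was less stable than the call of Ercc1, since it was 0 without WT mouse 2, 0 without WT mouse 3, 1 without WT mouse 1 and 1 (Polk) with limma on log2(FPKM + 1).

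None of the 6 partners of the recognition factors (median log2 fold change -0.01) and none of the 8 other TFIIH subunits (median -0.05) passed the edgeR test, with 1 gene of each list at an unadjusted p under 0.05. Such a p was found for 28.3% of all genes tested. Groups did not overlap for 10 of the 42 genes, 5 in each direction, beside 33.5% of all genes tested. The summed level of the 42 genes was 1808 to 1877 CPM in WT and 1702 to 1959 CPM in Trpm2-/- mice, ranges that overlap.

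Platinum lesions are also handled by other pathways. None of 8 mismatch repair genes (median log2 fold change 0.27) and none of 17 tested genes of interstrand crosslink repair, a process in which ERCC1-XPF also cuts (median 0.12), passed the edgeR test, with 0 and 3 genes at an unadjusted p under 0.05. Of 7 genes of translesion synthesis, in which polymerases copy past a lesion, 3 rose and 1 fell, with a median of 0.71. Among all genes tested, 4.74% rose and 7.28% fell. Rev1, the scaffold of this process, rose from 18.2 ± 3.03 to 32.8 ± 3.03 CPM (log2 fold change 0.85, adjusted p = 0.0106). Rev3l, the catalytic subunit of polymerase zeta, rose from 26.1 ± 2.44 to 42.7 ± 7.58 CPM (log2 fold change 0.71, adjusted p = 0.0210). Primpol, which restarts synthesis beyond a lesion, rose from 4.60 ± 0.465 to 8.84 ± 0.822 CPM (log2 fold change 0.94, adjusted p = 0.0254). Mad2l2, which codes for the REV7 subunit of polymerase zeta, fell from 74.3 ± 17.6 to 44.4 ± 4.49 CPM (log2 fold change -0.74, adjusted p = 0.0275), and its groups did not overlap. These are edgeR quasi-likelihood tests with mean ± SD of 3 mice per genotype.

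Among 20 p53 target genes 3 rose and 0 fell, beside 4.74% higher and 7.28% lower over all genes tested. The median log2 fold change of the 20 was 0.31. Tnfrsf10b, which codes for a death receptor, rose by a log2 fold change of 0.74 (adjusted p = 0.00578, edgeR), Eda2r, a receptor gene, by 0.97 (adjusted p = 0.0195) and Mdm2, the ligase that degrades p53, by 0.57 (adjusted p = 0.0335). Their summed level was 4726 to 5363 CPM in WT and 5324 to 6264 CPM in Trpm2-/- mice.

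Cell type markers moved beside these results. The 11 proximal tubule markers that fell were led by Slc34a1 (log2 fold change -2.73, adjusted p = 0.00391, edgeR), Cubn and Slc5a2, which code for a phosphate transporter, an endocytic receptor and a glucose transporter, and the median of the 12 was -1.45. Of 9 genes of injured tubule cells, 2 rose, Sox9 (1.16, adjusted p = 0.0115, edgeR) and Krt20 (0.79, adjusted p = 0.0189, edgeR). All 9 lay above 0, with a median of 0.47. An unadjusted p under 0.05 (edgeR) was found for 5 of them, beside 28.3% of all genes tested. The 9 genes summed to 17613 to 19552 CPM in WT and 19570 to 27701 CPM in Trpm2-/- mice. At the adjusted threshold 4.74% of all genes tested were higher and 7.28% were lower. Thick ascending limb markers had 1 of 4 lower, Umod, which codes for uromodulin (-1.97, adjusted p = 0.0326), and summed to 716 to 2163 CPM in WT and 196 to 835 CPM in Trpm2-/- mice.

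Of 10 tested leukocyte markers 1 fell, C1qa, whose groups overlapped (-2.03, adjusted p = 0.0401, edgeR). The list had 3 genes above 0 and 7 below, with a median of -0.20. Counting both directions, 4 of the 10 passed the methods' threshold and 5 had an unadjusted p under 0.05 (edgeR). Among all genes tested, 3.50% passed that threshold higher and 4.10% lower, and 28.3% had such a p. Lyz2 (1.35, adjusted p = 0.0911) and Ptprc (0.76, adjusted p = 0.164) did not pass but were higher in all 3 Trpm2-/- kidneys, and they were the only markers of the list whose groups did not overlap. The leukocyte sums of 147 to 218 and 111 to 171 CPM overlapped. None of 7 endothelial markers passed, also at an unadjusted p under 0.05 (0 of 7, edgeR), with sums of 99.9 to 162 CPM in WT and 71.2 to 238 CPM in Trpm2-/- mice. Of 4 tested urothelial markers 1 fell, Upk3a, with sums of 8.22 to 57.4 and 6.73 to 9.59 CPM. Of 15 tested genes of proliferating cells, which share replication factors with gap filling, 1 fell, Tyms (-0.65, adjusted p = 0.0271, edgeR), and 0 rose. The list otherwise lay mostly above 0, with 12 of 15 genes above and a median of 0.62, among them Rrm2 (0.63, adjusted p = 0.0602) and Top2a (1.11, adjusted p = 0.118). Groups did not overlap for 3 of these genes in the higher direction (Rrm2, Ccna2 and Ccnb2) and 1 in the lower (Tyms). Over all genes tested, 33.5% showed no overlap in one direction or the other. Top2a, Mki67 and Aurkb passed the methods' threshold, each higher, but their groups overlapped. The sums of 111 to 134 and 119 to 150.0 CPM overlapped. No marker listed was at 0 in all 6 samples. The part of cell composition and of the mitochondrial share in the levels of Ercc1 and the other members was not tested. With the mitochondrially encoded genes left out of the fit, Ercc1 had a log2 fold change of 1.25 (adjusted p = 0.00877, edgeR).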

How the data were processed

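Deposited count values are whole numbers of reads per gene that the authors obtained without normalization. The deposited FPKM scale these by gene length and by a library size, which was not equal to the total of the deposited counts. The submitters' processing notes name HISAT2, StringTie and mm9, without versions, but 98.3% of the 54409 gene identifiers shared with the GENCODE mouse annotation, release 21 (GRCm38) have the same position there. Strand setting and handling of multiply mapped reads are not given in the sources used here. Neither table holds comparisons by the authors.

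Differential expression was tested with edgeR 4.0.16 in R 4.3.3 (filterByExpr, TMM, two-sided quasi-likelihood test on genotype, Benjamini-Hochberg adjustment over 15816 genes; common dispersion 0.0445). SEs equal the size of the log2 fold change over the root of its F statistic, and intervals are 95%. CPM use TMM-scaled library sizes. Scripts were tested on simulated data. Alternatives used DESeq2 1.42.0, limma 3.58.1, other normalizations and filters, a replicate block and leaving out each mouse.

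Members and lists were chosen with earlier results of these data known. All members were named, with other pathway genes at an adjusted p under 0.05, partners in the ratios and at most 3 genes per further list by smallest p. Mad2l2, Ptprc, Mki67, Aurkb, Ccna2, Ccnb2, the neighbours of Ercc1 and the genes overlapping members were named after values were seen.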

Additional observations from a re-analysis of the deposited data

How the results depend on the processing

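The calls among genes of other repair pathways, p53 targets, markers and neighbours of Ercc1 were not recomputed. Results for the members, the other pathway genes and the ratios were recomputed under up to 18 alternatives. The number of members called, 1, was kept in 16 of them. It was 0 with limma on log2(FPKM + 1) without a filter and ranged from 1 to 2 when a mouse was left out, and members past the methods' threshold ranged from 0 to 1. Of the 10 members, 9 kept their direction in every alternative. Ercc2 did not, with log2 fold changes of -0.00703 without a count filter, -0.0352 with limma-voom, -0.00323 with limma on log2(FPKM + 1) with or without a filter, -0.00992 on log2(FPKM + 0.1) and -0.25 to 0.13 when a mouse was left out, all around a value near 0. The log2 fold change of Ercc1 ranged from 0.90 to 1.43. The 3 calls among other pathway genes became 1 with limma on log2(FPKM + 1) or log2(FPKM + 0.1) with a filter and 0 without, and 0 to 4 when a mouse was left out. Rpa1 lost its call in 10 alternatives, Uvssa in 7 and Polk in 4. With the replicate block, WT 3 and Trpm2-/- 4 have no same-numbered mouse, so the genotype difference rests on numbers 1 and 2. In that fit 1 member was called (Ercc1, log2 fold change 1.35, adjusted p = 0.00414, edgeR) and 0 other pathway genes. That fit takes no genotype difference from Trpm2-/- mouse 4, which had the lowest Ercc1 level of its group. The numbers 1 and 2 occur in both groups. Same-numbered mice correlated at 0.0960 and -0.00275 in their deviations from the group means, within the range of -0.29 to 0.24 for differently numbered mice. With only these pairs, the correlations cannot show whether the numbers mark a pairing. The ratios kept their direction when each of the 6 mice was left out; counts per gene length give the same ratios by construction. The cause of these differences was not tested. Reads of overlapping genes limit Ddb2 and Ercc2 most. Smaller shares of exonic bases lie in a gene of the opposite strand for Ddb1 (5.1%, Tkfc) and Xpa (4.1%, Ncbp1). All members are limited by 3 mice per group.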
